A study of Mus musculus with 6 samples.

Results

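Genes of the motile cilium axoneme, the microtubule core of cilia that beat, were followed in whole mouse ovaries. The members were chosen by symbol: families of axonemal dynein chains (Dnah, Dnaic, Dnai), dynein assembly factors (Dnaaf), cilia- and flagella-associated proteins (Cfap), tektins (Tekt), radial spoke heads (Rsph) and sperm-associated antigens (Spag), with 9 further symbols named singly. This gave 56 of the 16454 genes measured. Of the 9 symbols named singly, Foxj1, Ovgp1, Rfx2 and Rfx3 were matched, and the other 5, Sntn, Dynlrb2, Ccdc153, Tmem212 and Mcidas, were not analysed here. The deposited table is a filtered list of genes, and of each family the members counted are those with a row in it.

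The DEHP lineage descended from F0 dams dosed with DEHP, the plasticizer di(2-ethylhexyl) phthalate, at 20 µg/kg/day. The control lineage descended from dams given the vehicle, tocopherol-stripped corn oil. All ovaries came from F3 CD1 mice, an outbred stock, at postnatal day 21, and the F3 animals themselves were not dosed. RNA of 3 ovaries of the DEHP lineage and 3 of the control lineage was sequenced, each ovary as its own library. The labels do not say how many founding dams or litters these ovaries represent, so the tests measure the spread between these ovaries. The comparison asks whether gene expression in the ovary differs in descendants of the dosed dams.

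A motile cilium holds a ring of microtubule doublets around a central pair. Outer and inner dynein arms on the doublets drive the beat, and radial spokes and the central apparatus regulate it. FOXJ1 switches on this gene programme together with RFX transcription factors, which bind X-box motifs in promoters of ciliary genes. In the female tract multiciliated cells line the oviduct, which lies against the ovary. Granulosa and stromal cells carry primary cilia, which do not beat and lack dynein arms. Proteins of the axoneme are also built into the sperm flagellum.

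The values were log2 CPM (read counts scaled to library size, on a log2 scale) as the authors deposited them, with a surrogate variable, an estimated nuisance direction across libraries, already removed. The summed CPM of the 16454 genes ranged from 979868 to 1026735 per library, and the depth in reads is unknown. The residuals filled 3 directions in place of 4, and the empty direction had its largest weights on DEHP replicates 3 (0.75) and 1 (-0.60). The correlation of these 2 libraries across genes was 0.998, against 0.978 to 0.989 for the other pairs, so their agreement with each other is partly built in. Ovarian markers were high in every library: Gdf9, an oocyte growth factor, was at 226 to 242 CPM in the DEHP lineage and 249 to 317 CPM in the control lineage, and Amh, a granulosa cell hormone, was at 292 to 346 CPM in the DEHP lineage and 352 to 410 CPM in the control lineage.

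The members' promoters were searched for letters of the motif that RFX factors bind. The hexamer GTTGCC, the core of an X-box arm, was searched on both strands in RefSeq promoter windows (build GRCm38.p6) that run from 250 bases before to 50 bases after a gene's start. Windows were found for 48 of the 56 members, and 21 of these (43.8%) held the hexamer, against 14.1% of the 27025 genes with a window. It was found in both RFX genes with a window and in 6 of 9 doublet and tektin genes (Tekt1, Tekt2, Tekt4, Cfap20, Cfap161 and Spag8). Of 9 inner arm genes 4 held it, Dnah10 and the near-identical copies Dnah7a, Dnah7b and Dnah7c. Of 6 outer arm genes 1 held it (Dnaic2), as did 2 of 3 assembly factors. So did 4 of 10 spoke and central apparatus genes, 2 of 5 other CFAP genes and 0 of the 4 members that are not axonemal. A full X-box was searched for as well, as a fixed string holding both arms at a set spacing. A single base of the string could vary. X-boxes with other letters or another spacing were not searched for. The string was found in 0 of the 48 members with a window and in 23 of the 27025 genes (0.0851%). The string is too rare for these counts to set the members apart from all genes. Whether members hold other forms of X-box with both arms was not tested. The matches given here are of the hexamer alone. A match is a run of letters, and binding was not measured. Windows of Rfx2, Tekt1 and Spag8 are shown because they carry the hexamer and come from a regulator and from doublet genes that followed Foxj1 across the ovaries. The window of Dnah8, the member with the smallest p-value, is shown beside them and holds no match. Capitals mark the hexamer, which reads GGCAAC where it lies on the other strand.
Rfx2, chr17:56830959-56831258, minus strand: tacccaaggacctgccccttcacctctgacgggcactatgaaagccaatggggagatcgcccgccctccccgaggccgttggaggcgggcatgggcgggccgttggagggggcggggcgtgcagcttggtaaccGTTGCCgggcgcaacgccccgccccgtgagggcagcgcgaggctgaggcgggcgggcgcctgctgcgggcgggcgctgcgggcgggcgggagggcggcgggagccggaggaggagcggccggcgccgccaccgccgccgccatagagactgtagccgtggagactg
Tekt1, chr11:72361833-72362132, minus strand: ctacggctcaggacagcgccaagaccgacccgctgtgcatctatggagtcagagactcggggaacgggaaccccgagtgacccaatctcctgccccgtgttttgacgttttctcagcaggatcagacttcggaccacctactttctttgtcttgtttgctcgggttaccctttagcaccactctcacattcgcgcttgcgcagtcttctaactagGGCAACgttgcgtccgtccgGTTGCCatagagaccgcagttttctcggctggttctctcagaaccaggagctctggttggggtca
Spag8, chr4:43653545-43653844, minus strand: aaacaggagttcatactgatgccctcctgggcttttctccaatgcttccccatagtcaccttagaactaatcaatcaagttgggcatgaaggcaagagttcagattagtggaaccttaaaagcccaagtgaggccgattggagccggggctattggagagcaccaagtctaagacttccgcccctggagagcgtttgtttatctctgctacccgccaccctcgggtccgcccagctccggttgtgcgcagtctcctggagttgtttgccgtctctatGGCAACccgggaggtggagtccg
Dnah8, chr17:30626686-30626985, plus strand: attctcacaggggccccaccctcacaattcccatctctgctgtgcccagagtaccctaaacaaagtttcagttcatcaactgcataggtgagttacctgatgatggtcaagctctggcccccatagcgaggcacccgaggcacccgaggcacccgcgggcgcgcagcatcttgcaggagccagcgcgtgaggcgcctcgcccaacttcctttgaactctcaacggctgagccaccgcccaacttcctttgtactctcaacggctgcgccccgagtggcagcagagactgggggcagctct
The hexamer lay 116 bases before the start of Rfx2. In Tekt1, for which RefSeq gives more than one start, the window belongs to a start inside the gene's full span. It held 2 matches, at 35 and 15 bases before that start on opposite strands, and in Spag8 it lay 27 bases after the start. The members with the hexamer had a median log2 difference between lineages of 0.03 (11 of 21 with a higher mean in the DEHP lineage), and those with a window but without it had a median of 0.01 (14 of 27).

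Most of the members were expressed at low levels. Averaged over the 6 ovaries, 14 of the 56 were under 1 CPM, 29 were at 1 to 10 CPM and 13 were at 10 CPM or more. Divided by exon length in GENCODE M21 and averaged over the 6 ovaries, the highest level was 40.4 CPM per kb for Spag9, which encodes a scaffold of JNK signalling. It was followed by Cfap36 (15.6 CPM per kb), Spag5 (12.8 CPM per kb), which encodes the mitotic spindle protein astrin, Cfap97 (12.6 CPM per kb), Cfap20 (11.2 CPM per kb) and the assembly factor Dnaaf5 (10.4 CPM per kb). The dynein heavy chains ran on the same scale from 0.0357 CPM per kb for Dnah14 to 0.853 CPM per kb for Dnah10, and Foxj1 was at 0.743 CPM per kb. Ovgp1, an oviduct glycoprotein, and the SUN-domain gene Spag4 are, like Spag5 and Spag9, matched by the rule without being axonemal. This leaves 52 members, a count that includes the transcription factors and the dynein assembly factors.

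**Figure D1:**
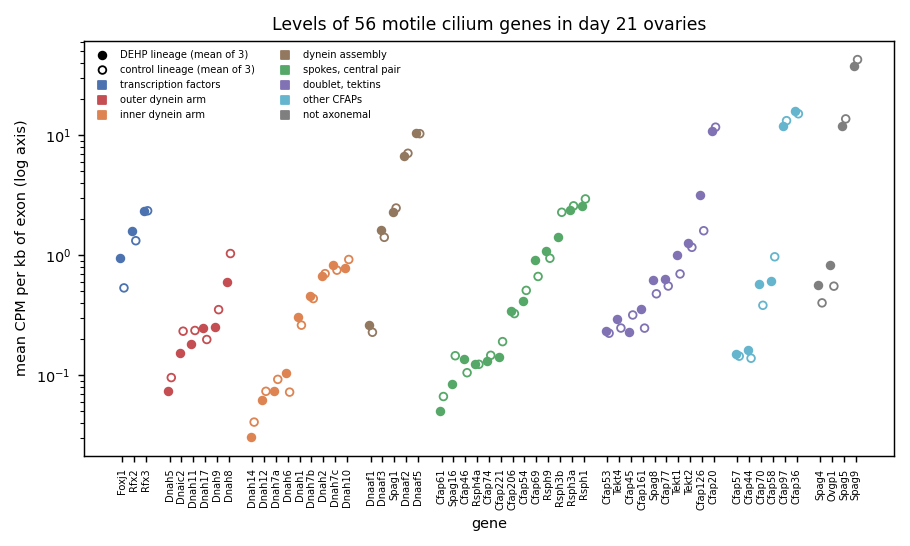
Mean level of each of the 56 members in CPM per kb of exon (log axis), filled for the DEHP lineage and open for the control lineage (each a mean of 3 ovaries), grouped and coloured by role. Filled and open symbols lie close together, and Spag9, at a mean of 40.4 CPM per kb, stands above all other members.

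No member differed between the lineages past the threshold. By limma, a moderated test fitted to all genes, 0 of 56 members reached an adjusted p (Benjamini-Hochberg) of 0.05, where 0.0425% of all genes did, and the smallest adjusted p of a member was 0.382, for Dnah8. With the ordinary 4 residual degrees of freedom it was again 0 members, with 0.122% of all genes. At an unadjusted p under 0.05 there were 5 members (8.93%), against 8.78% of all genes. Cfap126 and Cfap69 were higher in the DEHP lineage (2 members, with 4.76% of all genes), and Dnah8, Cfap58 and Dnah9 were lower (3 members, with 4.02% of all genes). The mean was higher in the DEHP lineage for 28 members and lower for 28, against 46.9% of all genes higher, and the median log2 difference was -0.01, the same as over all genes to 2 decimals. The 3 ovaries of one lineage did not overlap the 3 of the other in 11 members (19.6%), against 22.9% of all genes. They were higher in the DEHP lineage in 5 of these (10.8% of all genes) and lower in 6 (12.2% of all genes). A log2 difference of at least 1 in size was seen in 1 member, Cfap126 (2.07% of all genes). In bulk tissue, fewer cells of a type and less RNA per cell cannot be told apart. By the authors' deposited table, 0 members had an adjusted p under 0.05 (0.0182% of all genes), 2 had a p under 0.05 (6.18% of all genes), and the smallest adjusted p of a member in that table was 0.606. The count of 5 of members by limma was 14, 8 and 10 without control replicates 1, 2 and 3, where 2612, 2865 and 2462 of all 16454 genes passed, and 10 without DEHP replicate 2 (14.6% of all genes).

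How large a difference the data could hide varied with the level. The 95% intervals of the members reached a median of 0.73 to either side on the log2 scale, from 0.19 for the best measured to 1.47 for the widest. In 28 of the 56 members the interval lay wholly within a log2 difference of 1 in size, and in 9 it lay within 0.5. For the others these 6 ovaries leave differences of that size within the interval.

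**Figure D2:**
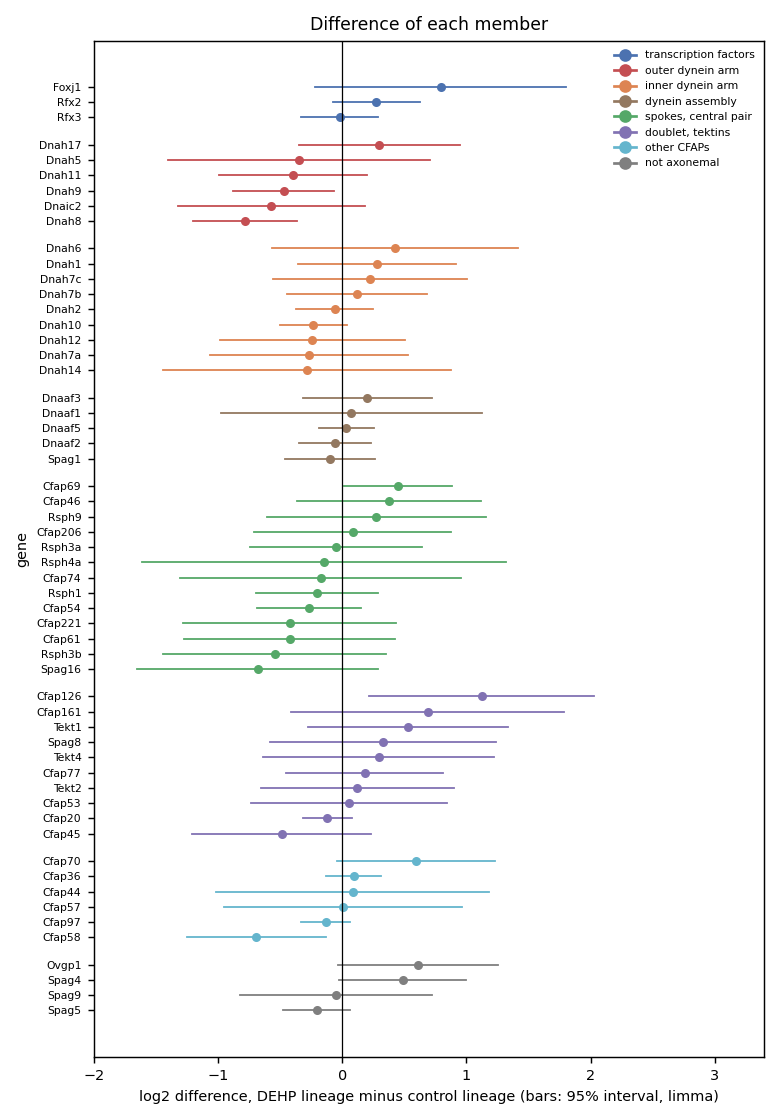
Log2 difference (DEHP lineage minus control lineage) of each member with its 95% interval from limma, grouped by role. Intervals of 5 members, Cfap126, Cfap69, Dnah8, Dnah9 and Cfap58, do not cross 0, and none of the members passed after adjustment over all genes.

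Foxj1 (chromosome 11, 116330704 to 116335499), the forkhead factor required for motile cilia, was at 1.56, 3.83 and 2.09 CPM in DEHP replicates 1 to 3 and at 1.77, 1.56 and 0.879 CPM in control replicates 1 to 3. DEHP replicate 2 stood high and control replicate 3 low, and the remaining ovaries overlapped. The log2 difference was 0.79 (SE 0.43, limma adjusted p 0.648), and it was 0.43 without DEHP replicate 2 and 0.49 without control replicate 3. Rfx2 (chromosome 17, 56775897 to 56831008), a partner of FOXJ1, was at 11.9, 10.9 and 12.1 CPM in the DEHP lineage and 10.6, 9.96 and 8.38 CPM in the control lineage. Every DEHP ovary lay above every control ovary, by a log2 difference of 0.27 (SE 0.15, limma adjusted p 0.645), which was 0.18 without control replicate 3. Rfx3, which also serves primary cilia, was at 23.2, 29.2 and 24.2 CPM in the DEHP lineage and 25.3, 29.0 and 23.4 CPM in the control lineage, with a log2 difference of -0.02 (95% interval -0.33 to 0.29).

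Of the outer dynein arm genes, 5 of 6 had lower means in the DEHP lineage, with a median log2 difference of -0.44. Cfap70, an outer arm associated protein counted with the other CFAP genes, lay higher. Roles were assigned with the values known, and no test was made of the group. Dnah8 (chromosome 17, 30626935 to 30875762), an outer arm heavy chain best known from sperm, was at 13.5, 19.1 and 15.6 CPM in the DEHP lineage and 33.5, 25.4 and 24.2 CPM in the control lineage. The lineages did not overlap, the highest DEHP ovary being below the lowest control ovary. The mean was 16.1 ± 2.83 CPM in the DEHP lineage and 27.7 ± 5.04 CPM in the control lineage (SD, n = 3 each), a log2 difference of -0.78 (SE 0.18, limma adjusted p 0.382). Dnah9 (chromosome 11, 65831324 to 66168581), an outer arm heavy chain of the distal axoneme, was at 3.86, 4.33 and 3.97 CPM in the DEHP lineage and 5.68, 5.56 and 5.62 CPM in the control lineage. These groups too were apart, by a log2 difference of -0.47 (SE 0.17, limma adjusted p 0.524). Exons on the opposite strand overlap Dnah8 over 443 bases and Dnah9 over 495 bases, and whether counting used the strand is not stated. Dnaic2, an intermediate chain of the same arm, was at 0.688, 0.688 and 0.734 CPM in the DEHP lineage and 1.26, 0.806 and 1.13 CPM in the control lineage (log2 difference -0.57, adjusted p 0.653).

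Dnah5, the heavy chain partner of Dnah9 in cilia, did not share that separation: it was at 0.761, 1.69 and 1.05 CPM in the DEHP lineage and 2.11, 1.49 and 0.883 CPM in the control lineage, with overlap, and its log2 difference of -0.35 was -0.06 without control replicate 1 and -0.69 without control replicate 3. Dnah11 overlapped as well, at 2.18 to 3.30 CPM in the DEHP lineage and 2.98 to 3.80 CPM in the control lineage. Dnah17, a sperm outer arm chain, was the one outer arm gene with a higher mean in the DEHP lineage (log2 difference 0.30, 95% interval -0.35 to 0.95). Of 14 oocyte markers, 13 had lower means in the DEHP lineage, with a median log2 difference of -0.23. By limma 0 of these markers passed the adjusted threshold (0.0425% of all genes). Nlrp14, an oocyte gene, was at 288, 269 and 288 CPM in the DEHP lineage and 380, 331 and 381 CPM in the control lineage. Their summed level was 1605, 1435 and 1600 CPM in the DEHP lineage and 1950, 1596 and 1983 CPM in the control lineage. The part of oocyte content in the outer arm values was not tested.

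Inner dynein arm genes were split, with 4 of 9 higher and a median log2 difference of -0.06. Dnah10, an inner arm heavy chain, was at 12.9, 12.1 and 12.8 CPM in the DEHP lineage and 15.1, 14.9 and 14.5 CPM in the control lineage. It was the one inner arm gene of 9 whose groups did not overlap, against 22.9% of all genes (log2 difference -0.23, SE 0.11, adjusted p 0.614). Dnah2 had the narrowest range over the ovaries of any member, 9.79 to 10.5 CPM in the DEHP lineage and 9.90 to 10.9 CPM in the control lineage. Dnah6 was at 0.899, 2.27 and 1.01 CPM in the DEHP lineage and 0.785, 1.04 and 1.05 CPM in the control lineage, and its log2 difference of 0.42 was 0.00 without DEHP replicate 2. Dnah7a, Dnah7b and Dnah7c are near-identical copies in which 54.2%, 40.0% and 61.6% of the 31-base words recur in another gene, and their separate levels are uncertain. Summed, the 3 copies were at 20.5 ± 1.28 CPM in the DEHP lineage and 19.4 ± 6.46 CPM in the control lineage (SD, n = 3 each), the control spread coming from 11.9 CPM in control replicate 3 against 23.6 and 22.5 CPM in control replicates 1 and 2.

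Assembly factors, which fold and load dynein arms in the cytoplasm, had log2 differences between -0.10 and 0.20, with 3 of 5 higher in the DEHP lineage. Dnaaf5 was at 37.8, 35.9 and 37.0 CPM in the DEHP lineage and 35.3, 33.6 and 39.7 CPM in the control lineage, a log2 difference of 0.03 (95% interval -0.19 to 0.25). Dnaaf1, a low member, again had its highest value in DEHP replicate 2, at 1.19 CPM. DEHP replicates 1 and 3 were at 0.445 and 0.575 CPM, and the control lineage was at 0.578 to 0.749 CPM. The log2 difference of Dnaaf1, 0.07, had a wide 95% interval of -0.98 to 1.12. Exons on the opposite strand overlap 584 of the 2821 exon bases of Dnaaf1 and 281 of the 2224 of Dnaaf3. In Dnaaf2 39.3% of the words recur elsewhere, and its level is therefore uncertain.

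Radial spoke and central apparatus genes had 4 of 13 members higher in the DEHP lineage and a median log2 difference of -0.18. Cfap69 (chromosome 5, 5579278 to 5664232), a central pair protein, was the exception with no overlap on the high side, at 7.49, 6.31 and 7.66 CPM in the DEHP lineage and 6.09, 4.80 and 4.89 CPM in the control lineage. Its log2 difference was 0.45 (SE 0.19, limma adjusted p 0.565). Of all genes, 10.8% had no overlap on that side. Cfap54, of the central apparatus, was at 6.06, 5.92 and 6.44 CPM in the DEHP lineage and 8.79, 6.99 and 6.60 CPM in the control lineage, apart by a small gap (log2 difference -0.27, adjusted p 0.701). Rsph1, a spoke head protein, was at 3.27 to 3.83 CPM in the DEHP lineage and 3.46 to 4.54 CPM in the control lineage, with overlap. Rsph3b was at 4.11, 5.11 and 4.03 CPM in the DEHP lineage and 5.59, 4.01 and 11.7 CPM in the control lineage. Control replicate 3 stood alone there, and the log2 difference of -0.54 was -0.11 without it. Rsph3b and its copy Rsph3a had 68.5% and 59.5% of their words in common with another gene, mostly with each other, so the split between them is uncertain. Their sum was 12.7, 11.2 and 11.0 CPM in the DEHP lineage and 10.6, 14.7 and 19.4 CPM in the control lineage.

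Of the tektins and other proteins of the doublet wall, 8 of 10 had higher means in the DEHP lineage, with a median log2 difference of 0.24. The groups were apart in 0 of these 10 members, against 22.9% of all genes. Their summed level was 63.1, 63.6 and 65.0 CPM in the DEHP lineage and 67.9, 61.2 and 63.1 CPM in the control lineage, a sum in which Cfap20 made up the larger share. The difference between these genes and the outer arm genes was not tested. Cfap126 (chromosome 1, 171113912 to 171126956), also called Flattop, had the largest difference of any member. It was at 4.61, 6.24 and 6.12 CPM in the DEHP lineage and 4.68, 1.75 and 2.09 CPM in the control lineage. Control replicate 1 lay within the DEHP range and control replicates 2 and 3 far below it. The log2 difference was 1.12 (SE 0.39, limma adjusted p 0.499). Without control replicate 1 it was 1.55 with a limma adjusted p of 0.104, the smallest of any member in the alternatives run. That fit took no degree of freedom off for the removed direction. Tekt1 was at 1.29, 2.19 and 1.45 CPM in the DEHP lineage and 1.13, 1.42 and 0.855 CPM in the control lineage, with overlap (log2 difference 0.53, SE 0.34, and 0.30 without DEHP replicate 2 or 0.34 without control replicate 3). Tekt2 was at 1.79, 3.24 and 2.23 CPM in the DEHP lineage and 2.79, 2.23 and 1.61 CPM in the control lineage. Exons on the opposite strand overlap 396 of its 1900 exon bases. Cfap45, an inner protein of the doublet, went against most of its group, at 1.03 to 1.75 CPM in the DEHP lineage and 1.58 to 2.03 CPM in the control lineage, with overlap (log2 difference -0.49).

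Among the remaining CFAP genes, Cfap58 (chromosome 19, 47937712 to 48035379), known from the sperm flagellum, was at 1.86, 2.58 and 1.93 CPM in the DEHP lineage and 3.13, 3.62 and 3.45 CPM in the control lineage. The groups were apart, by a log2 difference of -0.69 (SE 0.24, limma adjusted p 0.499). Cfap70 was at 2.80, 1.95 and 2.72 CPM in the DEHP lineage and 1.84, 1.39 and 1.70 CPM in the control lineage, apart in the other direction (log2 difference 0.59, SE 0.27, adjusted p 0.584). Cfap44, at 0.777 to 2.35 CPM in the DEHP lineage and 0.908 to 1.45 CPM in the control lineage, had its highest and its lowest value in the DEHP lineage. The abundant Cfap36, Cfap97 and Cfap20 had log2 differences of 0.09, -0.14 and -0.12, with 95% intervals of -0.13 to 0.31, -0.33 to 0.06 and -0.31 to 0.07.

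**Figure D3:**
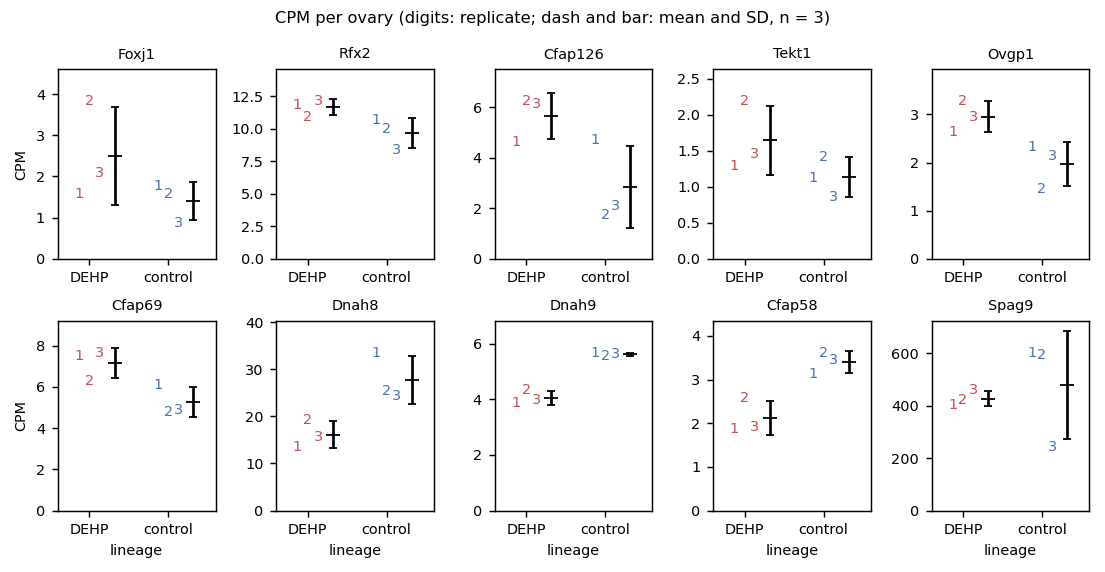
CPM per ovary of 10 members, with the replicate number as the symbol and mean and SD (n = 3) beside it, the DEHP lineage left of the control lineage. Dnah8, Dnah9 and Cfap58 lie lower and Rfx2, Ovgp1 and Cfap69 higher in every DEHP ovary than in every control ovary, while Foxj1, Cfap126, Tekt1 and Spag9 overlap.

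The members that are not axonemal behaved separately. Ovgp1 (chromosome 3, 105973802 to 105987423), secreted by non-ciliated oviduct cells, was at 2.63, 3.28 and 2.94 CPM in the DEHP lineage and 2.33, 1.45 and 2.13 CPM in the control lineage. The groups were apart, with a log2 difference of 0.61 (SE 0.27, limma adjusted p 0.580) that was 0.40 without control replicate 2, and 28.7% of its words are shared, most with the overlapping Gm42890. Spag4 was at 2.73, 2.68 and 2.71 CPM in the DEHP lineage and 1.92, 1.85 and 2.04 CPM in the control lineage (log2 difference 0.49, adjusted p 0.580). Spag9 was at 401, 420 and 459 CPM in the DEHP lineage and 601, 592 and 242 CPM in the control lineage. Control replicate 3 had less than every other ovary and control replicates 1 and 2 more, so the log2 difference of -0.05 was -0.49 without control replicate 3 and 0.17 without control replicate 1. Because Spag9 made up much of the summed level, the sum over all members was 879, 933 and 945 CPM in the DEHP lineage and 1128, 1110 and 763 CPM in the control lineage. Over the 52 members left without these 4, the sums were 413, 431 and 417 CPM in the DEHP lineage and 446, 446 and 432 CPM in the control lineage. The largest parts were Cfap97, Cfap20 and Cfap36, at means of 61.9, 47.8 and 44.1 CPM in the DEHP lineage. In the control lineage they were at 68.2, 52.0 and 41.4 CPM. Of the 52, 26 had higher and 26 lower means in the DEHP lineage, and the sum was not tested.

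The members also varied between ovaries of the same lineage. DEHP replicate 2 held the highest value of 17 members and control replicate 1 that of 16, while DEHP replicate 1 held the lowest value of 19 and control replicate 3 that of 16. The mean centred log2 CPM of the 31 structural members with a mean log2 CPM of at least 0 was -0.14, 0.16 and -0.02 in DEHP replicates 1 to 3 and 0.15, 0.02 and -0.16 in control replicates 1 to 3. Both lineages thus contained one ovary on the high side and one on the low side. Of the 55 members beside Foxj1, 21 had a correlation with Foxj1 across the 6 ovaries of at least 0.5 and 8 had one of -0.5 or below. These are descriptions over 6 libraries, of which DEHP replicates 1 and 3 are tied. No share of all genes is given beside these counts or those by role below, and they were not tested. The correlation was 0.96 for Spag8, 0.95 for Dnaaf3 and Tekt1 and 0.87 for Tekt2, and 7 of 10 doublet genes reached 0.5 against 1 of 6 outer arm genes. Cfap20, which is expressed well beyond motile cilia, ran opposite to Foxj1, at -0.91, and Dnah8 had a correlation of -0.24.

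**Figure D4:**
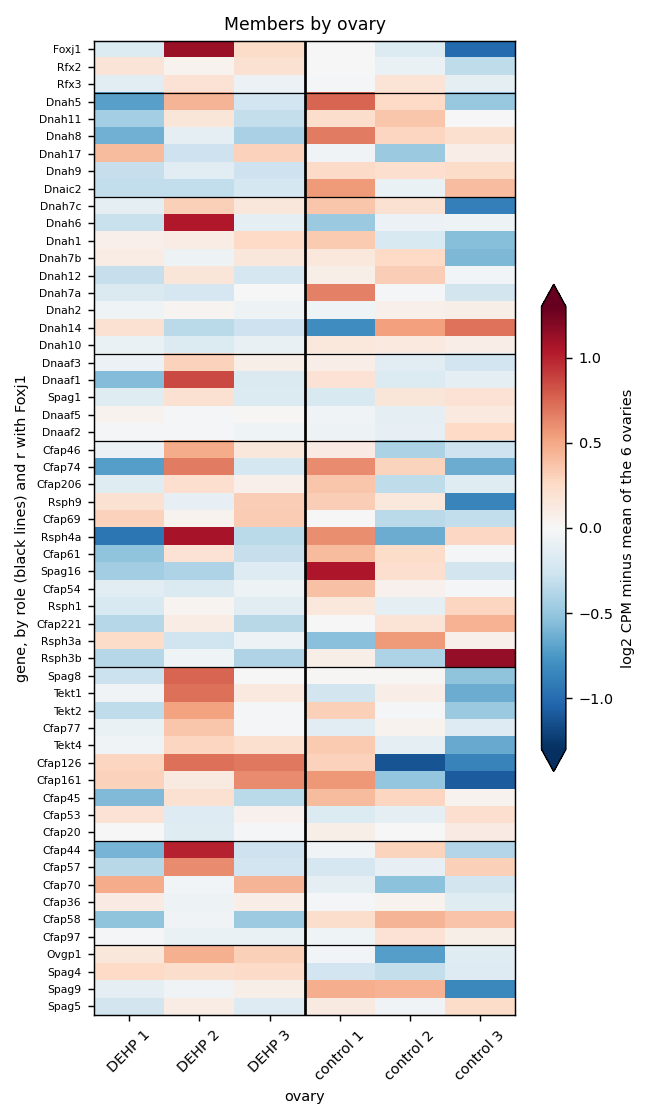
Log2 CPM of each member minus its mean over the 6 ovaries, with the DEHP lineage left of the control lineage and members grouped by role and ordered by their correlation with Foxj1. Foxj1, Spag8, Tekt1, Tekt2, Dnah6 and Cfap44 are highest in DEHP replicate 2, and Dnah8, Dnah9 and Cfap58 are lower throughout the DEHP lineage.

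Of the marker lists for tissue around the ovary, the median of the adipocyte markers took a like order. The median centred level of 9 adipocyte markers was -1.36, 2.13 and -0.15 in DEHP replicates 1 to 3 and 1.05, -0.17 and -1.72 in control replicates 1 to 3, so that DEHP replicate 2 and control replicate 1 were again highest and DEHP replicate 1 and control replicate 3 lowest. Their summed level ran from 105 to 1027 CPM in the DEHP lineage and from 105 to 461 CPM in the control lineage. Of these 9, 7 had higher and 2 lower means in the DEHP lineage. Plin1, the adipocyte marker with the smallest p, was lower and did not take that order (log2 difference -0.69, limma adjusted p 0.529). It was at 13.02, 25.47 and 16.08 CPM in the DEHP lineage and 34.43, 27.85 and 23.58 CPM in the control lineage. The median of 15 markers of oviduct and other epithelia was -0.18, 0.11 and 0.03 in DEHP replicates 1 to 3 and 0.09, -0.21 and -0.08 in control replicates 1 to 3, with summed levels of 108 to 123 CPM in the DEHP lineage and 97.2 to 107 CPM in the control lineage. Of these 15, 10 were higher in the DEHP lineage, and Epcam, an epithelial adhesion molecule, was at 7.98, 9.28 and 8.40 CPM in the DEHP lineage and 6.12, 4.47 and 6.81 CPM in the control lineage (limma adjusted p 0.511). Wfdc2, a secreted protein of reproductive tract epithelium, was at 0.672, 0.684 and 0.775 CPM in the DEHP lineage and 1.70, 0.719 and 1.26 CPM in the control lineage (log2 difference -0.70, limma adjusted p 0.653). Krt8, a keratin of simple epithelia, was at 33.5 to 43.2 CPM in the DEHP lineage and 28.4 to 36.8 CPM in the control lineage, with overlap. Control replicate 2 was the lowest ovary for the epithelial list. The median of 12 surface epithelium markers was -0.09, 0.01 and 0.03 in DEHP replicates 1 to 3 and 0.17, 0.04 and -0.18 in control replicates 1 to 3. These 12 were split, 6 with higher and 6 with lower means. By limma 0 genes of this list, of the adipocyte list and of the epithelial list passed the adjusted threshold (0.0425% of all genes). All markers of the adipocyte and epithelial lists had a row in the table, and the part of adherent tissue in the members' values was not tested.

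**Figure D5:**
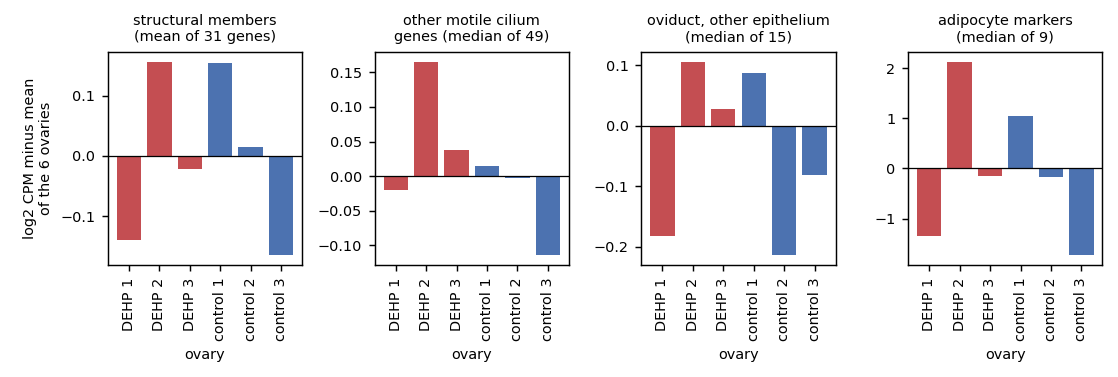
Log2 CPM minus the mean of the 6 ovaries, per ovary, for the mean of 31 structural members and for the medians of 49 other motile cilium genes, 15 markers of oviduct and other epithelia and 9 adipocyte markers, with the DEHP lineage in red left of the control lineage in blue, and the axes differ in scale. DEHP replicate 2 is highest and control replicate 3 below 0 in all 4 panels, and the adipocyte panel spans -1.72 to 2.13.

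Cilium genes outside the named families were counted in the same way. Of 71 further motile cilium symbols, 49 had a row, 30 of them with a higher mean in the DEHP lineage and a median log2 difference of 0.09. Of these, 0 passed the adjusted threshold by limma (0.0425% of all genes) and 1 the unadjusted one (8.78% of all genes). Dnali1, a light intermediate chain of the inner arm, was at 0.818, 1.39 and 0.942 CPM in the DEHP lineage and 0.613, 0.682 and 0.437 CPM in the control lineage, apart by a log2 difference of 0.85 (adjusted p 0.570). Ccdc40, a ruler of axonemal spacing, was at 0.971, 1.19 and 0.984 CPM in the DEHP lineage and 0.636, 0.624 and 0.795 CPM in the control lineage (log2 difference 0.62, adjusted p 0.621). Gm867 had the smallest p of this list, with a log2 difference of 1.81 (adjusted p 0.477) at 0.736 to 1.72 CPM in the DEHP lineage and 0.206 to 0.603 CPM in the control lineage. Intraflagellar transport genes, which primary and motile cilia share, had 16 of 39 higher and a median of -0.03. Of the 39, 0 passed the adjusted threshold (0.0425% of all genes) and 1 the unadjusted one (8.78% of all genes). That gene was Ift81, at 39.0, 34.4 and 38.8 CPM in the DEHP lineage and 49.3, 43.9 and 46.6 CPM in the control lineage (log2 difference -0.32, SE 0.09, adjusted p 0.477). Of 12 further regulators of ciliogenesis with a row, 9 were higher and 0 passed the adjusted threshold (0.0425% of all genes). Myb, which acts upstream of FOXJ1 in multiciliated cells, was at 1.15, 1.37 and 1.23 CPM in the DEHP lineage and 0.772, 0.753 and 0.632 CPM in the control lineage (log2 difference 0.80, SE 0.29, adjusted p 0.524).

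The genes outside the set whose pattern was most like the mean of the 31 structural members, among 14400 with a mean log2 CPM of at least 0, were Wdr45 (correlation 0.996 over 6 ovaries), 6720468P15Rik (0.996), Zfp938 (0.995), Capn6 (0.994) and Cyp2j9 (0.994). Capn6, a calpain family gene, was at 10.5, 23.7 and 14.5 CPM in the DEHP lineage and 25.0, 17.8 and 10.1 CPM in the control lineage. With 6 libraries such values are common, and 111 of the 14400 genes had a correlation of at least 0.95.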

How the data were processed

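Polyadenylated RNA of whole ovaries was sequenced with a strand-marking kit for 101 cycles from one end, per the labels' protocols. The submitters' processing notes name build GRCm38.p6, STAR 2.5.3a, Trimmomatic 0.36, edgeR 3.20.5 in R 3.4.3, and featureCounts with Subread 1.5.2. Settings, strand use and the prior count are not stated there. The authors deposited log2 CPM per ovary with a surrogate variable removed, which narrows SDs, and their own log2 fold change, signed fold, p-value and adjusted p; counts were not used here.

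The groups were compared on the deposited log2 CPM of 16454 genes with limma 3.58.1 in R 4.3.3 (mean-variance trend, two-sided, Benjamini-Hochberg over all genes, threshold 0.05). Residual degrees of freedom were 3 in place of 4, to count the removed direction. With 1 ovary left out, or DEHP replicates 1 and 3 averaged, they were also 3, with none taken off for that direction. Both 3 and 4 were run on simulated data with that direction removed and noise independent between genes. The outcome of that run is not reported here. CPM are powers of 2 of the deposited values. The members and lists were chosen with earlier results of these data known. Genes named are the 6 largest rises, falls, levels per length and ranges (rises, falls and ranges at a mean log2 CPM of at least 0), any past the threshold, the regulators and Ovgp1, and of each other list up to 3 with the smallest p. Members described beyond these were chosen after their values were seen. Exon lengths and shared 31-base words (20% or more taken as uncertain) came from GENCODE M21, positions from RefSeq, both on GRCm38. The labels do not say whether replicate numbers pair the samples, and the main fit did not pair them.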

Additional observations from a re-analysis of the deposited data

How the results depend on the processing

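No member passed the adjusted threshold in limma under any of the 15 alternatives run (0 in each). The count of all genes past it was 7, and was 1 with no mean-variance trend, 20 with the ordinary 4 residual degrees of freedom, 3 with quantile normalization and 2 to 35 with 1 ovary left out (35 without DEHP replicate 2, and 4 and 2 without control replicates 2 and 3). The 5 members with an unadjusted p under 0.05 became 10 with no mean-variance trend. All genes then stood at 8.42%, against 17.9% of members. The count was 10 with 4 degrees of freedom (14.9% of all genes). It was 5 of the 31 members with a mean log2 CPM of at least 1 (16.1%), against 8.94% of all genes at that level. On log2(CPM + 1) it was 7 (12.5%), against 9.04% of all genes. With 1 ovary left out it was 4 to 14, where 6.86% to 17.4% of all genes passed. Fits with 1 ovary left out took no degree of freedom off for the removed direction. Their counts are therefore not on the same footing as those of the main fit. Members with a higher mean in the DEHP lineage numbered 14 of the 31 that averaged 1 or more on the log2 CPM scale, and 24 to 30 of 56 with 1 ovary left out. The median log2 difference of the members stayed between -0.08 and 0.05, and that of their summed CPM, -0.10, was -0.0025, -0.01 and -0.28 without control replicates 1, 2 and 3 and -0.08 without Spag9, an alternative chosen after seeing the data. Of the named members, Rfx3 turned to 0.0297 with DEHP replicates 1 and 3 averaged. With 1 ovary left out, Rfx3 ran from -0.121 to 0.064, Spag9 from -0.49 to 0.17, Cfap44 from -0.39 to 0.41 and Dnaaf5 from -0.0224 to 0.0986; the cause was not tested. Same-numbered ovaries had deviations that correlated at -0.327, -0.003 and -0.198, and no ovary correlated best with its own number. The deviations were taken after the surrogate variable was removed, so they cannot show whether the numbers mark pairs. A fit with the replicate block called 6 genes and 0 members, with 6 members (10.7%) and 10.8% of all genes under an unadjusted p of 0.05. With no read counts, the precision of members under 1 CPM could not be derived from depth.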
